A study of Homo sapiens with 2 samples.

Results

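The YAP/TEAD output of HCT116 cells was examined through 10 genes, chosen as the coactivators YAP1 and WWTR1 (which encodes TAZ), the DNA-binding factors TEAD1 and TEAD4, and 6 genes known as their targets: CCN1 (CYR61 in the files), CCN2 (CTGF in the files), ANKRD1, AXL, AMOTL2 and LATS2. All 10 were measured, each by 1 probe, among 17832 genes with a usable signal. HCT116 is a human colorectal carcinoma line of epithelial origin. It was transfected by Lipofectamine 2000 with a miR-204-5p mimic (a synthetic copy of that microRNA) or the negative control, and total RNA was taken after 48 h and labelled with Cy3 for single-colour Agilent arrays. By the labels, both conditions shared the line, the medium with fetal bovine serum and the transfection reagent, and each was measured on 1 array, 2 arrays in all. There were no replicates, so every difference describes these 2 arrays and no difference was tested. In bulk RNA, fewer cells of a type and less RNA per cell cannot be told apart.

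YAP and TAZ are transcriptional coactivators without DNA-binding domains of their own. They enter the nucleus and bind TEAD factors, which recognise the motif GGAATG, and the complex drives genes of adhesion, matrix and growth such as CCN1 and CCN2. The Hippo kinases, with LATS1 and LATS2 at the end of the cascade, phosphorylate YAP and TAZ and so keep them in the cytoplasm or send them to degradation. Because that control acts on protein, the mRNA of YAP1 or WWTR1 does not report the activity of the pathway, and target genes are commonly read in its place. Several targets, LATS2 and AMOTL2 among them, are themselves restraints on YAP.

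The mimic follows the mature sequence below, whose capitals mark the seed (bases 2 to 8) that pairs with target mRNAs. It is given from RefSeq, where this mature stretch lies on the minus strand at chr9:70810031-70810052 of GRCh38.p14.
hsa-miR-204-5p: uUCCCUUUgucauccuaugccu

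Promoter windows from 250 bases before to 50 bases after the annotated start were in the RefSeq table for 7 of the 10 genes, 10 windows in all. The windows of CCN2 and ANKRD1 are shown because both genes were far lower on the mimic array and both windows held several copies of the TEAD motif. Capitals mark each GGAATG or its reverse complement CATTCC, searched on both strands, with no overlapping copies here. CCN2 lies on the minus strand at chr6:131951323-131951622 and ANKRD1 on the minus strand at chr10:90921038-90921337, both on GRCh38.p14.
CCN2: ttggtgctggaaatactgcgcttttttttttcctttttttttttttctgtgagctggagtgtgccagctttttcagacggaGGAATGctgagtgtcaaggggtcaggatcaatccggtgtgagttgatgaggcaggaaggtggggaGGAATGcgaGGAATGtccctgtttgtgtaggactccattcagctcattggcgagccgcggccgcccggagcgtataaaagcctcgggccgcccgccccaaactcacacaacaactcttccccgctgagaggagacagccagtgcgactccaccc
ANKRD1: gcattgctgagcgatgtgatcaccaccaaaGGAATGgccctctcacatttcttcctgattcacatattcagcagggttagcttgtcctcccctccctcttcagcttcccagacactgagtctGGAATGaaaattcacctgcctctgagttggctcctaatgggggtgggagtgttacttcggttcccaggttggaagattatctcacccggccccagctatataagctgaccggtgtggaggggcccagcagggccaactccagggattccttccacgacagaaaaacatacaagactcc
The CCN2 window held 3 copies, which began 169, 104 and 95 bases before the start, and the ANKRD1 window held 2, which began 220 and 128 bases before it. Among all 35116 windows of 300 bases in the table, 14.0% held at least 1 copy, 1.37% at least 2 and 0.128% at least 3. The windows of YAP1 and LATS2 held 1 copy each, as did 1 of the 2 windows of AXL and 1 of the 2 of AMOTL2, and the 2 windows of WWTR1 held none. A copy is a match of letters and was not tested as a binding site.

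Intensities below were scaled so that the 75th percentile of probe intensity was equal on both arrays (it was 1364 with the mimic and 894 with the control before scaling), and differences are log2 intensity, mimic minus control. As a guide to technical spread, the difference had a median SD of 0.064 over the spots of 788 probes printed at least 8 times, and 2 probes of 1 gene differed by a median of 0.48 over 2514 genes. A property of the deposited values bears on the lower genes. For each of 1366 probes, all of them with a deposited fold under 0.50 (mimic over control), the raw mimic signal equalled the control signal times the authors' deposited fold within a relative tolerance of 1e-06, so it is not an independent reading. These probes are called recomputed here, and CCN1, CCN2 and AXL were measured by such probes. The other 7 genes were not, and their mimic signals were, at every spot, 1.2 times a number of 7 significant digits, the pattern of 95.5% of the spots of that array. The deposited fold is the ratio of the authors' normalized values, so scaling takes a further 0.61 log2 off a recomputed probe. Of the 1367 probes that the authors marked Down, 1366 were recomputed, and 0 of those marked Up were. Leaving recomputed probes out therefore takes away lower genes of the authors' table almost by construction. The share of 10.4% lower given below for genes without one also pools 2938 genes outside that table, which the removal does not touch. No conclusion is drawn from it.

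Cell type markers moved with the comparison as well. Of all genes 15.1% were higher by 2-fold or more with the mimic and 16% were lower. Of 16 epithelial markers 12 were higher by as much and 0 were lower, with summed scaled intensities of 278280 with the mimic and 46573 with the control. The file's coordinates place the probes of 2 of them, KRT8 and KRT18, on other chromosomes than the RefSeq genes, and without these 11 of 14 were higher, with sums of 222910 with the mimic and 23001 with the control. E-cadherin (CDH1) had 11324 on the mimic array and 36.6 on the array labelled negative control, near the lowest detected level there (18.7). ELF3, RAB25, OVOL1 and the intestinal factor CDX2 lay under that lowest level on the array labelled negative control and between 1255 (CDX2) and 3030 (RAB25) on the mimic array. HCT116 is known as a line that expresses E-cadherin, so the control array goes against its label at CDH1. The levels usual in HCT116 were not checked for ELF3, RAB25, OVOL1 and CDX2. Of 10 mesenchymal markers with a usable signal, 9 were lower by 2-fold or more and 1 was higher, with sums of 32372 with the mimic and 231623 with the control, and VIM (vimentin), from a recomputed probe, had 1279 with the mimic and 163211 with the control. Without the genes with recomputed probes 5 of 6 were lower (against 10.4% of all such genes) and 1 was higher (against 16.2%), with the limit given above for that removal. The sums turned there, at 29125 with the mimic and 7498 with the control. That turn came from the higher gene S100A4, at 27247 with the mimic and 2473 with the control. Of 6 intestinal markers 1 was higher (CDX2) and 1 lower, with sums of 1825 with the mimic and 665 with the control. Of 7 fibroblast markers 1 was higher (COL1A1, at 487 with the mimic and 75.3 with the control) and 5 were lower. Their sums, of which COL1A1 held most with the mimic, were 653 with the mimic and 618 with the control. Of 6 blood cell markers 1 was higher and 1 lower (5875 with the mimic and 4569 with the control), and of 5 endothelial markers 1 was lower (631 with the mimic and 923 with the control). With 1 array each, the treatment and any difference in the cells themselves cannot be told apart, no result can be given without the control array, and the part of cell type in the results below was not tested.

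Of the 10 genes, 5 were lower by 2-fold or more with the mimic and 0 were higher by as much. Over all 17832 genes 16% were lower by that much and 15.1% were higher. Over the 14894 genes in the authors' deposited table, its normalized values called 1017 lower and 4606 higher. For the same genes 75th-percentile scaling called 2128 lower and 2080 higher. The deposited normalized values placed the median of all genes at 0.58. Among the 7 genes without a recomputed probe 2 were lower (ANKRD1 and AMOTL2) and 0 were higher, against 10.4% lower and 16.2% higher over all 16655 genes without one. These shares were set in part by the removal itself, since 1366 of the 1367 probes marked Down were recomputed. The 5 lower genes were all targets (CCN1, CCN2, ANKRD1, AXL and AMOTL2), which left LATS2 as the target within 2-fold, and the 4 transcription factors and coactivators were all within 2-fold. The median difference was -3.66 over the 6 targets and -0.33 over the 4 factors, against -0.07 over all genes. The target median rests on recomputed probes: it was -1.59 over the 3 targets without one (ANKRD1, AMOTL2 and LATS2). It was -1.15 over the 5 targets in the authors' deposited table, with its normalized values. Those 5 lack ANKRD1 and include the recomputed CCN1, CCN2 and AXL, and their median is the AXL value.

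**Figure D1:**
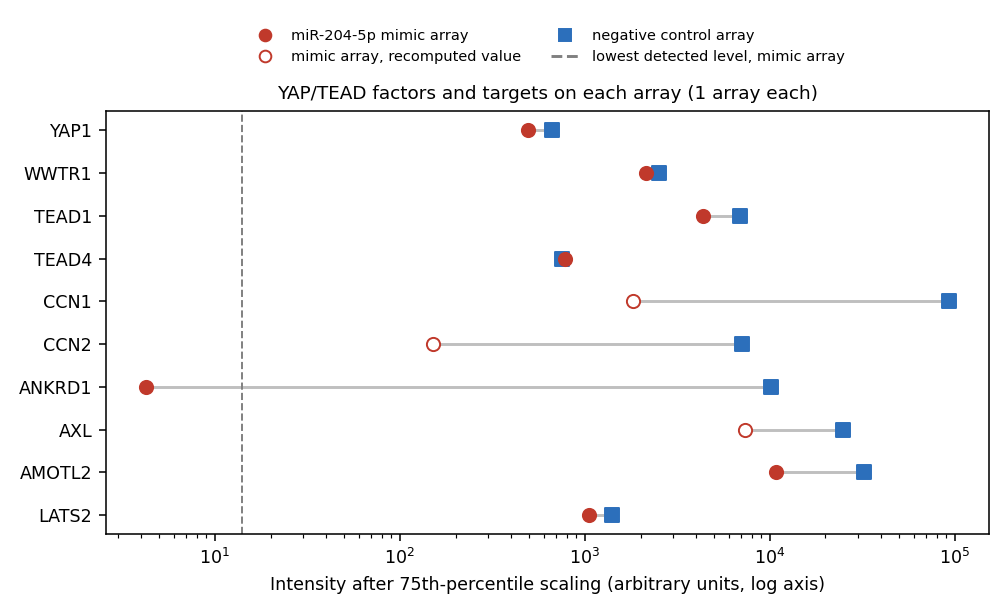
Scaled intensity (log axis) of each gene on the miR-204-5p mimic array (circles, open where the deposited value is recomputed) and the negative control array (squares), 1 array each; the dashed line is the lowest detected level on the mimic array. YAP1, WWTR1, TEAD1 and TEAD4 lie close together on both arrays, whereas CCN1, CCN2 and ANKRD1 lie far apart.

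The coactivators had similar levels on both arrays. YAP1 was printed at 10 spots, the most among the 10 genes. Its scaled intensity ran from 472 to 526 (median 493) with the mimic and from 620 to 684 (median 664) with the control. The spots of the arrays did not overlap, and the difference was -0.42 ± 0.038 (SD over 10 spots of the same 2 RNA samples, which are not replicates), or 1.34-fold lower on the mimic array in 10 of 10 spots. The raw signals were ordered the other way, with every mimic spot (583 to 650) above every control spot (502 to 554). The authors' deposited table gave a normalized difference of 0.11, so the direction at YAP1 turned in the raw and the deposited values. The median of all genes stood at 0.58 in that table. With 0.6 taken off the mimic values marked Up there, the YAP1 difference was -0.49. It was negative with quantile normalization (-0.47), cyclic loess (-0.49) and median scaling (-0.38). WWTR1, at 1 spot, had 2134 with the mimic and 2530 with the control (-0.25). Its raw signals were 2637 with the mimic and 2048 with the control, and its normalized difference in the authors' deposited table was 0.39, so its direction turned in those values too. With the same 0.6 taken off, the WWTR1 difference was -0.21.

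**Figure D2:**
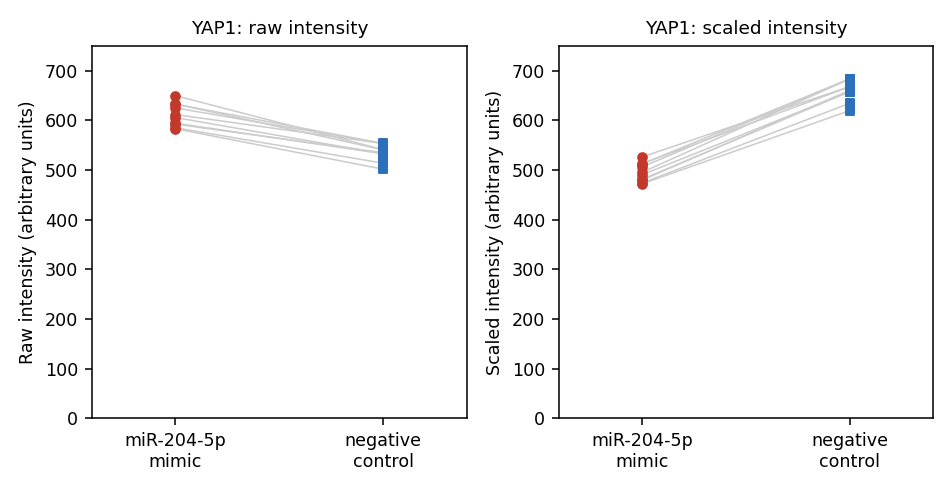
Intensity of the 10 YAP1 spots on the miR-204-5p mimic array (left in each panel) and the negative control array (right), raw in the left panel and scaled to the 75th percentile in the right panel; grey lines join the same array position. The mimic spots lie above the control spots before scaling (583 to 650 against 502 to 554) and below them after it (472 to 526 against 620 to 684).

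TEAD1 and TEAD4, which carry YAP and TAZ to DNA, were likewise within 2-fold. TEAD1 had 4332 with the mimic and 6862 with the control, a difference of -0.66 or 1.58-fold lower, the furthest from 0 among the 4 factors, while its direction turned in the authors' deposited table (0.02). With 0.6 taken off the mimic values marked Up there, the TEAD1 difference was -0.58. TEAD4 had 778 with the mimic and 749 with the control (0.06), which is under the median gap between 2 probes of a gene, and its sign turned with the scaling (from -0.005 to 0.59 over 12 alternatives). In the authors' deposited table TEAD4 was 1.51-fold higher (0.59), where the median of all genes stood at 0.58. None of the 4 factors was 2-fold different in either direction under any of 12 alternative ways of computing the values. Each factor has 1 probe that was not recomputed. Alternatives that only choose between probes or treat recomputed probes therefore return the main value by construction.

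The matricellular targets CCN1 and CCN2 encode secreted proteins of the matrix that bind integrins and growth factors, and both are standard readouts of YAP activity. CCN1 had 1826 with the mimic and 93018 with the control, a log2 difference of -5.67 or 51.0-fold lower. CCN2 had 151 with the mimic and 7115 with the control, a difference of -5.56 or 47.1-fold lower. Both mimic values were recomputed, and the deposited folds themselves stand at 33.4-fold lower for CCN1 and 30.8-fold lower for CCN2 in the authors' deposited table. The CCN1 probe covers chr1:86048953-86049012 (plus strand) and the CCN2 probe chr6:132270130-132270189 (minus strand) in coordinates of the authors' table. Their genome build was not given in the sources used here, nor was the exon or UTR that a probe covers. Of the 17832 genes, 213 had a lower difference than CCN1 and 223 a lower one than CCN2.

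ANKRD1, a cofactor of muscle and stress responses and a direct target of YAP, is the target whose large difference rests on no recomputed value. It lay outside the authors' table of detected probes and was found by its accession. With the mimic its raw signal stood at 5.24, where the 153 negative-control spots had a median of 5.59. On the control array it stood at 8261, which is 2296 times the negative-control median there. The mimic signal is therefore at background and gives only a bound. ANKRD1 thus counted as usable only through its control signal and could not have been called higher. Against the lowest scaled level of a detected probe on the mimic array (14.0), ANKRD1 was at least 729-fold lower, with 10207 on the control array. That bound depends on the floor chosen. The lowest raw mimic signal that the authors' table itself gives for a probe not recomputed was 26.2, a higher floor with a smaller bound.

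AXL, a receptor tyrosine kinase for the ligand GAS6, had 7351 with the mimic and 24941 with the control, a difference of -1.76 or 3.39-fold lower. Its mimic value was recomputed, and the deposited fold is 2.22-fold lower in the authors' deposited table. Of the other receptors of that family, MERTK was 4.91-fold lower (1039 with the mimic and 5100 with the control, a recomputed probe) and TYRO3 was within 2-fold (1745 with the mimic and 1382 with the control). GAS6 went the opposite way to AXL, 6.01-fold higher, at 309 with the mimic and 51.4 with the control.

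The feedback targets AMOTL2 and LATS2 differed from each other. AMOTL2, an angiomotin protein that holds YAP at junctions, had 10760 with the mimic and 32416 with the control, a difference of -1.59 or 3.01-fold lower. Its raw signals, 13294 with the mimic and 26237 with the control, were not recomputed. In the authors' deposited table it was marked Up although its fold was 0.54, and its normalized difference of -0.89 is short of 2-fold. The median of all genes stood at 0.58 there. With 0.6 taken off the mimic values marked Up, the AMOTL2 difference was -1.49. LATS2, the kinase that phosphorylates YAP and TAZ, had 1048 with the mimic and 1403 with the control (-0.42), within 2-fold. Its direction turned in the authors' deposited table, at 0.17, and was -0.43 with that 0.6 taken off.

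**Figure D3:**
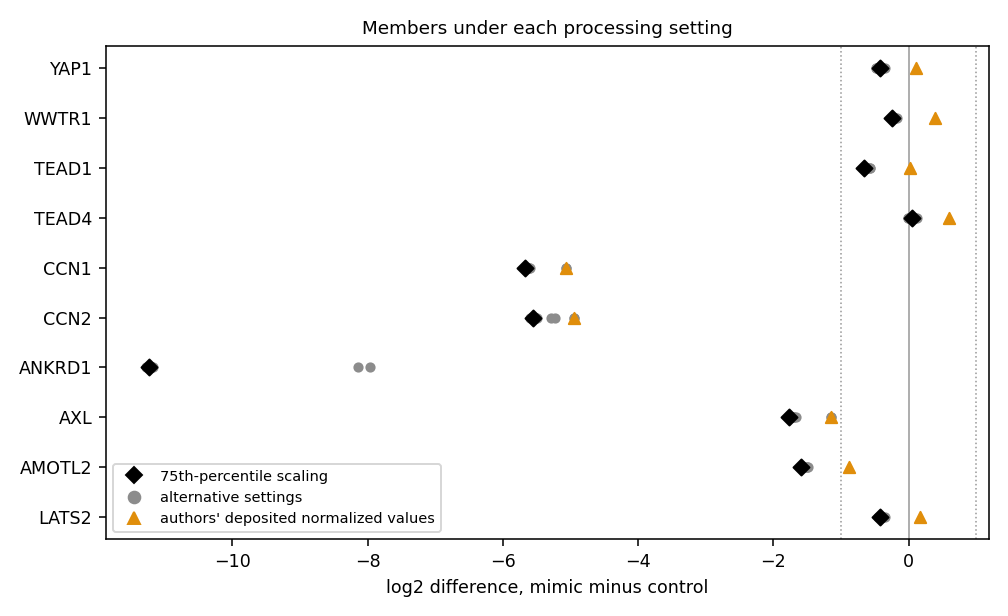
Log2 difference, mimic minus control, of each gene under 75th-percentile scaling (diamonds), alternative settings (grey) and the authors' deposited normalized values (triangles); dotted lines mark 2-fold. The deposited values move every listed gene to the right, so YAP1, WWTR1, TEAD1 and LATS2 cross 0, while CCN1, CCN2, ANKRD1 and AXL stay beyond 2-fold lower (ANKRD1 has no deposited normalized value). The median of all genes stood at 0.58 in the deposited values.

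A further 24 genes recalled as YAP/TEAD targets, whose evidence was not checked, were examined beside the 6 above. Of these, 14 were lower by 2-fold or more with the mimic (58.3%, against 16% of all genes), 1 was higher (4.17%, against 15.1%) and 9 were within 2-fold. Their median was -1.25, or -1.14 with genes at background set to their bound. INHBA, which encodes an activin subunit, was at least 611-fold lower, with 8565 on the control array. The transcription factor FOXF2 was at least 94.5-fold lower (1323 with the control), and TGFB2, a TGF-beta ligand, at least 17.8-fold lower (249 with the control). INHBA, FOXF2 and TGFB2 were under the lowest detected level on the mimic array, and none was recomputed. IGFBP3, an IGF-binding protein, had 23.9 with the mimic and 705 with the control, and EDN1, the vasoconstrictor endothelin-1, had 32.7 with the mimic and 545 with the control, both from recomputed probes. The 2 probes of EDN1 gave -5.23 and -2.88. Recomputed probes stood behind 6 of the 14 lower genes. Among those 6 was a gene whose recomputed probe gave -1.93 and whose other probe, not recomputed, gave -0.27. Of the 18 genes without a recomputed probe 8 were lower, against 10.4% of all such genes, with the limit given above for that removal. Of these 8, 5 were at background on the mimic array. They counted as usable only through their control signal and could not have been called higher. The higher gene was AREG, an EGF receptor ligand, at 91246 with the mimic and 42813 with the control (1.09), and its 2 probes gave 1.09 each.

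Of 17 upstream Hippo kinases and adaptors, 5 were lower by 2-fold or more (29.4%, against 16% of all genes) and 2 were higher (11.8%, against 15.1%), with a median of -0.32. Of the 13 without a recomputed probe 1 was lower, against 10.4% of all such genes, but the removal takes out lower genes almost by construction. WWC1, the adaptor KIBRA that promotes LATS activity, was 35.1-fold higher, at 1869 with the mimic and 53.2 with the control. NF2 (merlin), a membrane scaffold for the same kinases, was 3.11-fold higher, at 8879 with the mimic and 2860 with the control. On the lower side FRMD6, a FERM-domain relative of merlin, had 420 with the mimic and 16150 with the control, and AJUBA, a LIM protein that restrains LATS, had 5840 with the mimic and 41904 with the control. TAOK3 and TAOK1, kinases that activate the cascade, were 5.58-fold and 3.29-fold lower. FRMD6, AJUBA, TAOK3 and TAOK1 all came from recomputed probes. STK4 (MST1), at 369 with the mimic and 845 with the control, was not recomputed, and its 2 probes gave -1.14 and -1.25, but its difference was -0.43 in the authors' deposited table. The core genes STK3 (0.09), SAV1 (0.002), MOB1A (0.04, from probes at 0.82 and -0.73) and LATS1 (-0.32, or 0.44 in the authors' deposited table) were within 2-fold. The median of all genes stood at 0.58 in that table. With 0.6 taken off the mimic values marked Up there, STK4 was at -1.03 and LATS1 at -0.16.

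Genes listed as restraints on YAP, many of them in the cytoplasm or at cell polarity complexes, were higher or within 2-fold. Of 8 with a usable signal, 4 were at least 2-fold higher (50%, against 15.1% of all genes) and 0 were lower (median 0.90), and none was recomputed. LLGL2, a basolateral polarity protein of epithelia, was 11.4-fold higher, at 2357 with the mimic and 207 with the control, and its 2 probes gave 2.11 and 4.90. SCRIB, another polarity scaffold, had 17655 with the mimic and 5869 with the control, and AMOT had 131 with the mimic and 60.6 with the control, a difference of 1.12 that fell short of 2-fold with normexp background correction (0.53) and with a constant of 32 added (0.82). YWHAE, a 14-3-3 protein, was 7.59-fold higher, but the file's coordinates place its probe on chromosome 2 and the RefSeq gene is on chromosome 17, so whether it reads YWHAE was not tested. Without YWHAE, 3 of 7 were higher and 0 were lower. These genes moved in the direction of the epithelial markers given above, and the part of cell type in them was not tested. Of the other TEAD and VGLL factors, TEAD2 was 4.54-fold higher (167 with the mimic and 36.9 with the control), while TEAD3 (-0.04), VGLL3 (-0.46) and the dim VGLL1 and VGLL2 were within 2-fold.

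**Figure D4:**
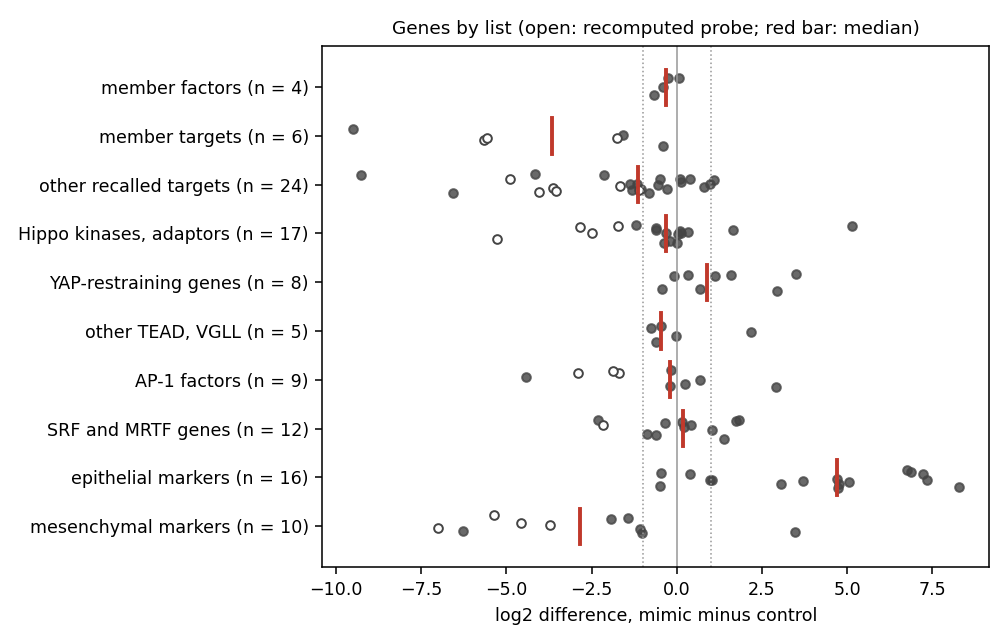
Log2 difference, mimic minus control, of each gene with a usable signal by list, with genes at background placed at their bound; open points have a recomputed probe, red bars are medians and dotted lines mark 2-fold. The 6 targets chosen have a median of -3.66, and the recalled targets lie on both sides of 0 with a median of -1.25 (-1.14 at the bounds). The 4 factors lie within 2-fold, and the epithelial markers have a median of 4.71. YAP1, WWTR1, TEAD1 and the target LATS2 change side of 0 in the authors' deposited values, where the median of all genes stood at 0.58, and TEAD4 changes side with the scaling.

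The AP-1 factors, which often bind beside TEAD, and genes of SRF and its MRTF coactivators, which also drive CCN1 and CCN2, were set beside the targets. Of 9 AP-1 genes, 4 were lower (44.4%, against 16% of all genes) and 1 was higher (11.1%, against 15.1%). Of the 6 without a recomputed probe 1 was lower, against 10.4% of all such genes, with the same limit on that removal. JUN had 3948 with the mimic and 29483 with the control, FOS had 149 with the mimic and 482 with the control, and BATF3 was 3.64-fold lower, all recomputed. FOSL2, not recomputed, had 23.0 with the mimic and 491 with the control, whereas JUND was 7.48-fold higher. Of 12 SRF and MRTF genes, 2 were lower (16.7%, against 16% of all genes) and 4 were higher (33.3%, against 15.1%), with a median of 0.17. EGR1, an early response gene with a recomputed probe, was 4.51-fold lower and the smooth muscle gene CNN1 5.02-fold lower, while ACTA2 (3.51-fold), the LIM-domain cofactor FHL2 (3.31-fold) and MRTFB (2.59-fold) were higher. The other CCN genes followed CCN1 and CCN2 in direction where they were measured. CCN3 had 823 with the mimic and 7101 with the control from a recomputed probe, CCN5 had 15.5 with the mimic and 89.7 with the control, and CCN4, at background on the mimic array, was at least 2.41-fold lower by its bound but short of 2-fold with normexp (-0.96) and with a constant of 32 added (-0.65), while CCN6 was at background on both arrays. ANKRD2, a muscle relative of ANKRD1, was 2.13-fold higher (104 with the mimic and 49.1 with the control), and it was likewise short of 2-fold in those settings (0.42 at the lowest).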

How the data were processed

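Total RNA of the mimic-transfected and control-transfected samples was labelled with Cy3 for single-colour Agilent arrays, per the labels' protocols, and scanned signals were read by Agilent Feature Extraction, version 9.1 per the submitters' processing notes. Each deposited scanner file gives 44495 spots of linear intensity with no normalization between arrays. The authors' deposited table holds 20291 probes detected in 5 of 5 samples, of which 2 were analysed here, with raw intensity, normalized log2 intensity and the mimic-over-control ratio as a linear fold, per the file headers. The series matrix repeats those deposited log2 values within 0.005 (medians 9.81 for the mimic, 9.21 for the control). It is thus in log2, with no centring by gene. How the authors normalized was not given in the sources used here. For the 6 members marked Up there, the deposited mimic value less 0.6 equalled a value of the control column within 2e-06.

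Spots of a probe were averaged on the log2 scale, each array's 75th percentile over 34127 non-control probes was subtracted, and probes of a gene were averaged. Genes were taken from the authors' table or, if absent there, by accession. A gene outside the table and under the lowest level of a detected, not recomputed probe on both arrays was left out, and one under it on a single array was given a bound. This rule was chosen after list values were seen. The call threshold was 2-fold. The scaling was tested on simulated data. Alternatives used limma 3.58.1 in R 4.3.3. Members, gene lists and thresholds were chosen with earlier results of these data known, and the lists were written from memory. Named beyond the 10 members were at most 5 genes of a list at least 2-fold different, largest first. Others named (NF2, STK4, STK3, SAV1, MOB1A, LATS1, TYRO3, TEAD3, VGLL genes, AREG, SRF, KRT8, KRT18, CCN6, ANKRD2 and S100A4) were chosen after their values were seen. Likeness of pattern between genes was not computed, since 2 arrays give 1 difference per gene. The number of arrays limits the precision.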

Additional observations from a re-analysis of the deposited data

How the results depend on the processing

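Of the 12 alternative ways of computing the values and 2 other thresholds, most left the count of 5 lower genes and the median of -1.13 close to where they were. With the authors' deposited normalized values 3 of 9 genes were at least 2-fold lower and the median was 0.022, and there the median of all genes stood at 0.58. Those values also called 1017 genes lower and 4606 higher (81.9% higher), against 2128 lower and 2080 higher (49.4% higher) for the same genes under 75th-percentile scaling. With 0.6 taken off their mimic values marked Up, chosen with the data already seen, 4 of 9 genes were lower and the median was -0.58. Leaving out recomputed probes, which removes CCN1, CCN2 and AXL by construction, gave 2 lower genes of 7 (ANKRD1 and AMOTL2) and a median of -0.42, while the share of higher calls over all genes moved to 58.9%. At 4-fold 3 genes were lower. No member was 2-fold higher under any of these settings. With recomputed probes at the deposited fold and no further scaling, likewise chosen with the data seen, 5 genes were lower. ANKRD1 moved to -7.96 with normexp, since its mimic signal is at background, and there the median of all genes stood at -0.18. AMOTL2 was at least 2-fold lower under 11 of 12 alternatives, with -0.89 in the deposited values. It has 1 probe that was not recomputed, so alternatives that only choose between probes or treat recomputed probes could not change it. A set of 569 values was compared for 52 list genes named in the text (S100A4 and COL1A1 are not among them). Of these values, 523 moved by less than the SD between probes of a gene (0.69), 46 moved by more and 0 changed sign from a 2-fold call. The 523 include values that were fixed by construction. Of the 42 genes among those 52 with a 2-fold call, 37 kept it in every alternative that measured them. STK4, AMOT, SRF (0.69 at the lowest), CCN4 and ANKRD2 did not. No paired analysis was possible because each group has 1 array. Signals near the negative controls limit the size of the differences of ANKRD1, INHBA, FOXF2 and TGFB2.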
